A study of Mus musculus with 12 samples.

Results

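The genes described here are 10 members of the interleukin-6 (IL6) cytokine family, its receptors and its signaling chain: the ligands Il6, Il11 and Lif, the receptor subunits Osmr, Il6ra, Lifr and Il6st (gp130), the transcription factor Stat3, and the STAT3-induced genes Socs3 and Pim1. They were taken by symbol from the 57186 genes of the raw count table. The table covered DDKC tumor cells, lines isolated from pancreatic tumors of Dkk3-/- mice that also carried Ptf1a Cre/+. The Cre is expressed from Ptf1a in the pancreas, whereas the Dkk3 knockout, in which exon 2 is replaced, is present in every tissue. All groups therefore lacked the secreted full-length DKK3, and no line with intact Dkk3 was part of the comparison. An intracellular isoform, Dkk3b, starts elsewhere in the gene, and the paper reports that it was still expressed in Dkk3-null acini. The lines DDKC_9750, DDKC_9790 and DDKC_9804 were each grown untreated or with recombinant DKK3 (rDKK3) in serum-containing medium, and each line and condition was sequenced in 2 libraries, 12 in all. The study asked how added DKK3, standing in for the protein that fibroblasts secrete around such tumors, changes tumor cells that make none.

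Most cytokines of the family signal through gp130, the shared subunit encoded by Il6st. A ligand-specific subunit decides which cytokine a cell can answer: Il6ra for IL6, Il11ra1 for IL11, Lifr for LIF, and Osmr, paired with gp130, for oncostatin M. Ligand binding activates Janus kinases on the receptor tails, which phosphorylate STAT3; the phosphorylated factor enters the nucleus and induces its own gene, the inhibitor Socs3, which shuts off gp130, and the kinase gene Pim1. In pancreatic cancer, IL6 and LIF are known mainly as signals exchanged between fibroblasts and tumor cells. The RNA counts report transcripts of these genes and not phosphorylated STAT3.

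STAT3 binds the palindrome TTCNNNGAA, so the promoters of the members were searched for it. Sequences came from RefSeq on build GRCm38.p6, from 250 bases before to 50 after a gene's start, and all 10 members were found there, with 13 promoters. Each also matched GRCm39, the build of the count table, at 1 place, and coordinates below are on GRCm39. The motif reads the same on both strands, and its copies were counted with overlaps allowed. It was present in 1 member, Socs3, where its first base lies 154 bases before the start, and in 8.3% of all 32851 promoters. The absence of these letters from the other 12 windows says nothing about binding elsewhere. The Socs3 promoter (chr11:117860143-117860442, minus strand) is shown for the motif, in capitals. Those of Osmr (chr15:6903745-6904044, minus strand), Il6st (chr13:112600354-112600653, plus strand) and Stat3 (chr11:100830317-100830616, minus strand) are shown because these 3 genes were higher together in DDKC_9750 cells. Lifr was higher in these cells too, and its promoters are not shown.
Socs3: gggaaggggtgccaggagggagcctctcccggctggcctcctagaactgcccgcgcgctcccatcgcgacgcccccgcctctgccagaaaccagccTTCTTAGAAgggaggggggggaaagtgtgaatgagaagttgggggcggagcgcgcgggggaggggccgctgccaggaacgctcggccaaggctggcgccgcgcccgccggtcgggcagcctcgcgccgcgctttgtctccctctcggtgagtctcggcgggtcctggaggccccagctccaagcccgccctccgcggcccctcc
Osmr: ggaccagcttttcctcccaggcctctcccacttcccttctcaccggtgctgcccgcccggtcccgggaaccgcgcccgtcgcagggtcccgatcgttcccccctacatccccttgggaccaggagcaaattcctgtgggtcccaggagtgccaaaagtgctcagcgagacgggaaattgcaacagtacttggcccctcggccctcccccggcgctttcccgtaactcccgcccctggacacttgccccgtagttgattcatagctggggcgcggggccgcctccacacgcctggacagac
Il6st: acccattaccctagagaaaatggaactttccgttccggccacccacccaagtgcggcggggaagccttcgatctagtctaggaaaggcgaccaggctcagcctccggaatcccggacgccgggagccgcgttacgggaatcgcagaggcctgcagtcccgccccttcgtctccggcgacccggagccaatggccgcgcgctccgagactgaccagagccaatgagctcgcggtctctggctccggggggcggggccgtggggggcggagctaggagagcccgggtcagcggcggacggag
Stat3: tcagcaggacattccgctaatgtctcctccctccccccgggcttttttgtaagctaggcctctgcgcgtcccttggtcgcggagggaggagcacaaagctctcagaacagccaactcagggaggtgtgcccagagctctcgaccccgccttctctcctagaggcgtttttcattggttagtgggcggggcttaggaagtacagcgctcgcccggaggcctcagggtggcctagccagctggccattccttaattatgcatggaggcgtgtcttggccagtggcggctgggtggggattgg

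Total counts ranged from 7520741 to 24541083 per untreated library and from 3822987 to 11567095 per rDKK3 library. A floor of 3 counts corresponded to 0.127 to 0.755 CPM (library-size scaled counts, with TMM factors) in single libraries. It covers counting error only, since the reads carry no molecular identifiers. The 2 libraries of a line and condition agreed within sampling noise after a shared shift between the libraries with lower and with higher numbers was taken out. They were therefore summed and counted as 1 sample, which left n = 3 lines per condition. The labels do not state that the libraries are separate cultures. Dkk3 itself had 1 count in all 12 libraries. Keratins of ductal cells (Krt8 800 to 2900 CPM over the 6 summed samples) and Vim (1590 to 4900 CPM) were abundant, while Epcam, an epithelial marker, lay between 0.409 and 2.03 CPM. Of the 7 leukocyte markers, 5 were under 1 CPM in every sample. Their summed level was 9.56 to 29.8 CPM untreated and 10.3 to 46.3 CPM with rDKK3, with Ptprc at or under 3 counts per sample. The macrophage genes Cd68 and Csf1r made up most of that level. Untreated and with rDKK3, Cd68 was at 2.03 and 2.96 CPM in DDKC_9750, 23.7 and 38.3 CPM in DDKC_9790, and 2.62 and 6.7 CPM in DDKC_9804, Csf1r lay between 5.93 and 10.2 CPM, and their part in the members' values was not tested. Of the 6 fibroblast markers, 3 were under 1 CPM in every sample, and their summed level was 6.73 to 13 CPM untreated and 5.72 to 11.7 CPM with rDKK3.

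The values of the members differed from line to line. In DDKC_9750 the receptor subunits, Stat3 and Socs3 were higher with rDKK3. In DDKC_9804 the ligands Lif and Il11 were higher, and Il6ra was lower. In DDKC_9790 most members differed little between conditions, apart from less Il11. Tested over the lines with edgeR (quasi-likelihood, line as block), no member was called in the 6 summed samples. That test called 1 of 17526 genes (0.00571%) at an adjusted p under 0.05. At an unadjusted p under 0.05 there were 2 of the 9 members tested and 1421 genes of all, and DESeq2 on the same samples called 1 member, Osmr, and 100 of 17526 genes. When the 12 libraries were taken as separate samples, Osmr and Pim1 were called higher and no member lower. The error of this fit pools the spread between repeat libraries with differences in response between lines, and it counts repeat libraries as replicates. In that fit 7.95% of 15165 genes were called higher and 10.1% lower, and the 2 of 9 members stand beside these shares. Osmr, 1 of the 2, passed the filter on low counts through DDKC_9750 alone, so nothing is read from this count against the shares. The unadjusted p was under 0.05 for 5 of the 9 members and 4992 genes. Il6 was too low to be tested.

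**Figure D1:**
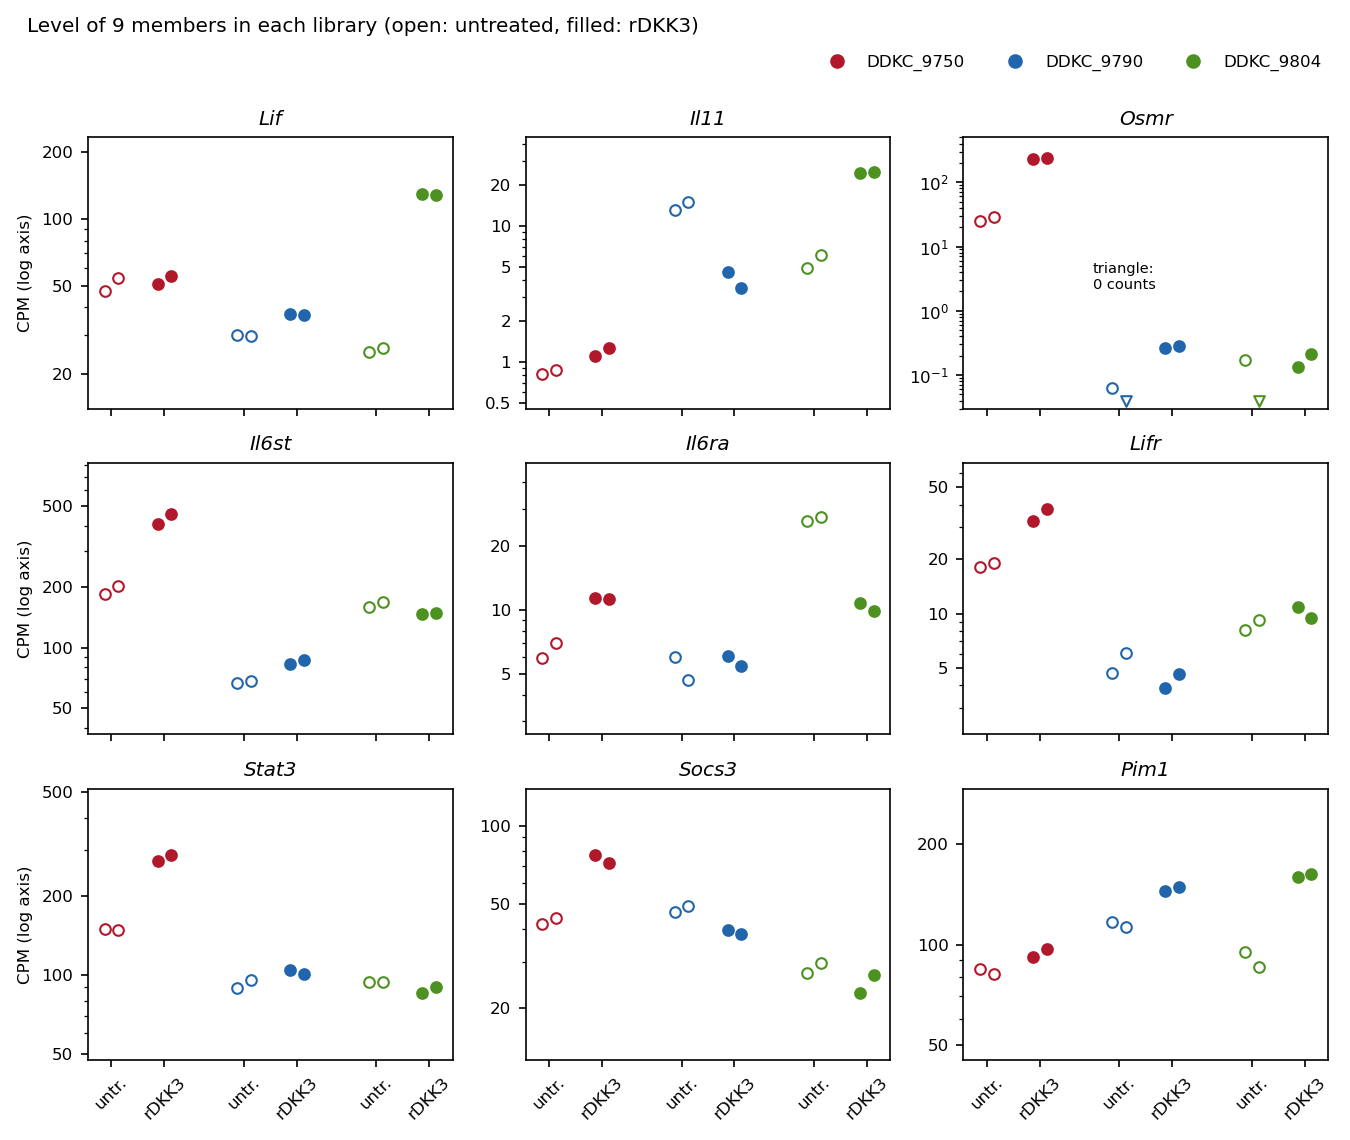
Level of each member except Il6 in the 12 libraries, in CPM on a log axis, for each line and condition; open points are untreated and filled points rDKK3-treated libraries, the 2 points of a condition are repeat libraries, and triangles at the lower edge are libraries with 0 counts. Osmr lies above 20 CPM only in DDKC_9750, and Lif is above 100 CPM only in rDKK3-treated DDKC_9804.

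Among the ligands, Il6 (ENSMUSG00000025746.12, chr5:30218112-30224979) was close to absent. It had 1 count in 1 untreated library of DDKC_9750 and 0 in the other 11 libraries. The floor of 3 counts limits Il6 to at most 0.0844 to 0.287 CPM in the summed samples.

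Lif (ENSMUSG00000034394.15, chr11:4207557-4222514), which encodes leukemia inhibitory factor, was expressed by all 3 lines. In DDKC_9804 it stood at 26.2 and 25.1 CPM in the untreated libraries and at 128 and 130 CPM in the rDKK3 libraries, a ratio of 5.11 (95% exact counting interval 4.71 to 5.56). In DDKC_9790 the untreated libraries held 29.7 and 29.9 CPM and the treated ones 36.8 and 37.4 CPM. In DDKC_9750 the libraries overlapped, with 54.3 and 47.2 CPM untreated and 55.4 and 50.9 CPM with rDKK3. The ratio was 1.23 (1.11 to 1.37) in DDKC_9790 and 1.04 in DDKC_9750, where the interval of 0.943 to 1.15 includes 1. Untreated DDKC_9804 cells had the lowest Lif level of the 3 lines. Over the lines the mean was 35.1 ± 12.9 CPM untreated and 72.5 ± 48.8 CPM with rDKK3 (SD, n = 3), a log2 fold change of 0.88 (SE 0.46, adjusted p = 0.66). Without DDKC_9804 the log2 fold change was 0.20.

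Il11 (ENSMUSG00000004371.16, chr7:4775372-4785858), a ligand best known from fibrosis and bone, differed in opposite directions in the lines. In DDKC_9790 it was 15 and 13.2 CPM untreated and 3.5 and 4.55 CPM with rDKK3, a ratio of 0.297 (0.228 to 0.381). In DDKC_9804 it was 6.11 and 4.9 CPM untreated and 25 and 24.6 CPM with rDKK3, a ratio of 4.72 (3.92 to 5.7). The libraries of the conditions did not overlap in either line. DDKC_9750 expressed little Il11, with 0.875 and 0.814 CPM untreated and 1.26 and 1.11 CPM with rDKK3, and 25 and 12 counts in the summed samples gave a ratio of 1.38 with an interval of 0.63 to 2.84 that includes 1. Over the lines the log2 fold change was 0.34 (SE 0.84, adjusted p = 0.923). It was 1.53 without DDKC_9790 and -0.97 without DDKC_9804.

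Among the receptor subunits, Osmr (ENSMUSG00000022146.13, chr15:6843058-6904450), the oncostatin M receptor, had the largest fold difference of any member. In DDKC_9750 it stood at 28.3 and 24.6 CPM in the untreated libraries and at 239 and 227 CPM in the rDKK3 libraries, a ratio of 8.8 (8.11 to 9.56). The other lines hardly expressed it. DDKC_9790 had 0 and 1 counts untreated and 2 and 3 counts with rDKK3, and DDKC_9804 had 0 and 4 counts untreated and 1 and 1 counts with rDKK3. The 1 and 5 counts of the summed DDKC_9790 samples gave a ratio of 6.18 whose interval of 0.692 to 292 includes 1, so no difference was detectable at this depth. Untreated DDKC_9750 cells had 589 times the Osmr level of untreated DDKC_9790 cells (105 to 23300) and 230 times that of untreated DDKC_9804 cells (89.5 to 846). Over the lines the mean was 8.68 ± 14.9 CPM untreated and 76.1 ± 131 CPM with rDKK3 (SD, n = 3), each SD larger than its mean. The log2 fold change was 2.90 (SE 0.37, adjusted p = 0.517) in the summed samples and 3.05 (adjusted p = 3.44e-05) in the 12 libraries. Both values rest on DDKC_9750, and without that line Osmr was too low to be tested.

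Osmr also separated the lines most. By the test between lines, in which the untreated and the treated culture serve as a line's 2 samples, 4 of 9 members differed (Osmr, Il6st, Lifr and Stat3), against 31.7% of all genes tested. The unadjusted p was under 0.05 for 7 of the 9 members and for 8298 genes. For Osmr, DDKC_9750 was higher than DDKC_9790 by 9.49 on the log2 scale (SE 0.46, adjusted p = 0.00086) and higher than DDKC_9804 by 9.11 (SE 0.45, adjusted p = 0.000685), whereas DDKC_9804 and DDKC_9790 differed by 0.38 (SE 0.89, adjusted p = 0.789). Osmr passed the filter on low counts through DDKC_9750 alone, so a difference between that line and the others was largely fixed by the filter, and its call among the 4 carries no weight of its own. The fitted values against lines with 0 to 4 counts depend on the prior count and are not bounds.

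Il6st (ENSMUSG00000021756.13, chr13:112600604-112646620), the gp130 subunit itself, was also higher with rDKK3 in DDKC_9750. It was 201 and 184 CPM untreated and 456 and 411 CPM with rDKK3, a ratio of 2.22 (2.14 to 2.31). In DDKC_9790 it was 68.5 and 66.9 CPM untreated and 86.6 and 83.2 CPM treated, and in DDKC_9804 it was 169 and 159 CPM untreated and 148 and 147 CPM treated. The libraries of the conditions did not overlap in any line, with rDKK3 higher in DDKC_9750 and DDKC_9790 and lower in DDKC_9804. The log2 fold change over the lines was 0.45 (SE 0.25, adjusted p = 0.675), and 0.09 without DDKC_9750. Between lines, DDKC_9750 exceeded DDKC_9790 by 1.92 (SE 0.31, adjusted p = 0.0122). Without the untreated or the treated DDKC_9790 sample it did not pass the test (adjusted p = 0.103 and 0.126). DDKC_9804 lay between them and did not pass the test against either (adjusted p = 0.102 against DDKC_9750 and 0.0677 against DDKC_9790).

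Lifr (ENSMUSG00000054263.13, chr15:7120095-7226970), the subunit that joins gp130 to answer LIF, followed the same order of lines. It was 19.0 and 18.0 CPM untreated and 38.0 and 32.6 CPM with rDKK3 in DDKC_9750, a ratio of 1.87 (1.63 to 2.14). In DDKC_9790 it was 6.07 and 4.69 CPM untreated and 4.62 and 3.85 CPM treated, and in DDKC_9804 it was 9.2 and 8.15 CPM untreated and 9.49 and 10.8 CPM treated. The counting intervals of the ratio included 1 in both of these lines (0.593 to 1.07 and 0.983 to 1.51). DDKC_9750 exceeded DDKC_9790 by 2.40 (SE 0.33, adjusted p = 0.00828) and DDKC_9804 by 1.46 (SE 0.32, adjusted p = 0.0322). Without treated DDKC_9790 the contrast with DDKC_9790 did not pass (adjusted p = 0.0821). With rDKK3, Lifr had a log2 fold change of 0.32 (SE 0.26, adjusted p = 0.762), which was 0 without DDKC_9750 and 0.60 without DDKC_9790.

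Il6ra (ENSMUSG00000027947.12, chr3:89771366-89820503), the subunit that binds IL6, was highest in untreated DDKC_9804 and lower there with rDKK3. That line had 27.4 and 26.4 CPM untreated and 9.92 and 10.8 CPM treated, a ratio of 0.394 (0.325 to 0.475). In DDKC_9750 it was 7.0 and 5.97 CPM untreated and 11.3 and 11.4 CPM treated, a ratio of 1.77 (1.39 to 2.24), and in DDKC_9790 the libraries overlapped at 4.69 and 6.0 CPM untreated and 5.46 and 6.12 CPM treated. With rDKK3 the 3 lines lay closer together, at 9.16 ± 2.84 CPM against 12.8 ± 11.7 CPM untreated (SD, n = 3). The log2 fold change was -0.17 (SE 0.42, adjusted p = 0.924), and 0.46 without DDKC_9804. The difference between lines did not pass the test (adjusted p = 0.0997).

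Stat3 (ENSMUSG00000004040.17, chr11:100775924-100830366), the transcription factor downstream of gp130, was highest in DDKC_9750, where it was 149 and 150 CPM untreated and 287 and 274 CPM with rDKK3, a ratio of 1.84 (1.76 to 1.93). DDKC_9790 had 95.8 and 89.7 CPM untreated and 101 and 105 CPM treated, and DDKC_9804 had 94.6 and 94.0 CPM untreated and 90.1 and 85.5 CPM treated. The conditions did not overlap in any line, but outside DDKC_9750 the ratios were 1.11 and 0.935. Over all lines Stat3 had a log2 fold change of 0.31 (SE 0.21, adjusted p = 0.71), and 0.03 without DDKC_9750. DDKC_9750 exceeded DDKC_9804 by 1.18 (SE 0.25, adjusted p = 0.0303) and DDKC_9790 by 1.06 (SE 0.25, adjusted p = 0.0336), while DDKC_9790 and DDKC_9804 differed by 0.13 (SE 0.25, adjusted p = 0.753). The contrast with DDKC_9804 did not pass without untreated DDKC_9790, treated DDKC_9790 or treated DDKC_9804 (adjusted p = 0.0762, 0.0769 and 0.139).

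Socs3 (ENSMUSG00000053113.4, chr11:117856905-117860873), the feedback inhibitor whose promoter carries the motif shown above, was higher with rDKK3 in DDKC_9750 only. It was 44.3 and 42.0 CPM untreated and 71.7 and 77.0 CPM with rDKK3 in that line, a ratio of 1.73 (1.58 to 1.89). In DDKC_9790 it was lower with rDKK3, at 49.0 and 46.5 CPM untreated and 38.5 and 39.8 CPM treated (ratio 0.821, 0.747 to 0.903). In DDKC_9804 it was 29.8 and 27.1 CPM untreated and 26.7 and 22.7 CPM treated (ratio 0.874, 0.765 to 0.997). Socs3 had a log2 fold change over the lines of 0.10 (SE 0.24, adjusted p = 0.916), and -0.24 without DDKC_9750. DDKC_9750 exceeded DDKC_9804 by 1.14 (SE 0.29, adjusted p = 0.0494), while the test over all 3 lines gave an adjusted p of 0.0629. That contrast passed without untreated DDKC_9750 and did not pass when any other sample was left out (adjusted p = 0.0631 to 0.218).

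Pim1 (ENSMUSG00000024014.9, chr17:29709727-29715086), a survival kinase, was the only member whose rDKK3 libraries lay above the untreated ones in all 3 lines. It was 81.5 and 84.3 CPM untreated and 96.9 and 91.9 CPM treated in DDKC_9750, 113 and 117 CPM untreated and 148 and 144 CPM treated in DDKC_9790, and 85.8 and 94.7 CPM untreated and 162 and 159 CPM treated in DDKC_9804. The ratios were 1.11 (1.03 to 1.2), 1.24 (1.18 to 1.31) and 1.76 (1.66 to 1.86). The mean went from 97.2 ± 18.7 to 133 ± 35.6 CPM (SD, n = 3), a log2 fold change of 0.43 (SE 0.16, adjusted p = 0.598) in the summed samples and 0.46 (adjusted p = 0.0071) in the 12 libraries. Without DDKC_9804 these values were 0.25 and 0.28. DDKC_9750, the line with the most Osmr and Stat3, had the least Pim1 and its smallest difference. No contrast between lines passed the test (adjusted p = 0.0785 for DDKC_9790 against DDKC_9750). The share of all genes with rDKK3 libraries above the untreated ones in all 3 lines was not counted. By the sign of the single-line value alone, 13.1% of all genes were higher in each line. Nothing is therefore read from Pim1 being the only such member.

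**Figure D2:**
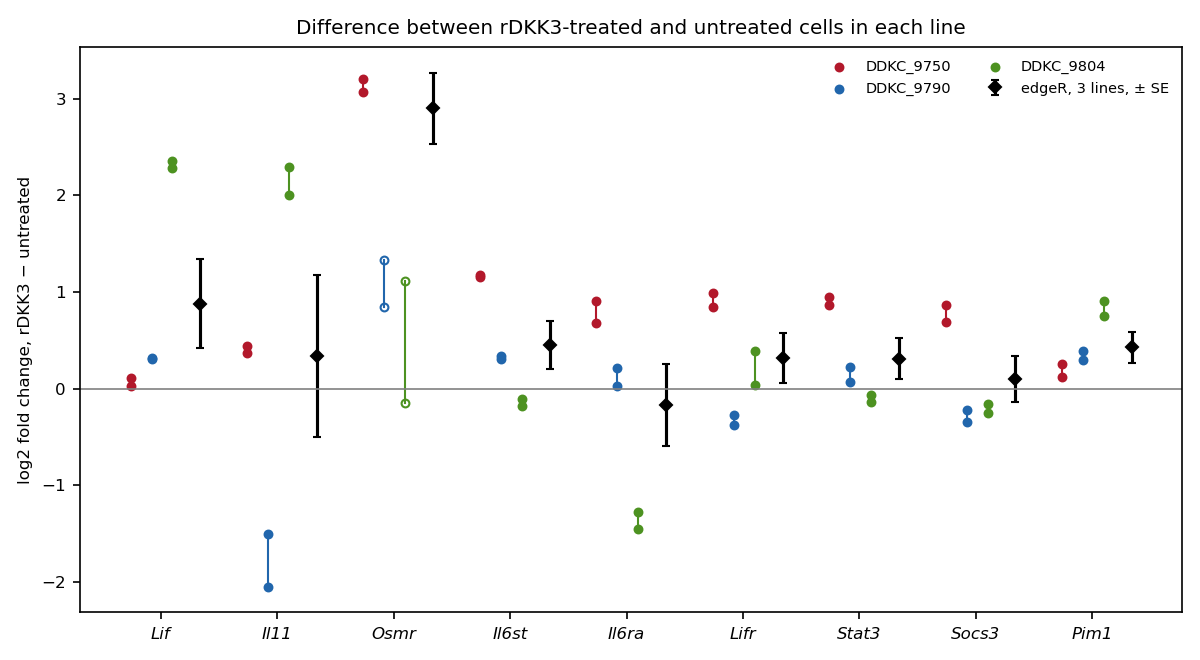
Log2 fold change of each member except Il6, rDKK3 minus untreated; the paired colored points are the separate values of the lower- and higher-numbered libraries of each line, open for Osmr in the lines with 0 to 4 counts per library, and black diamonds are edgeR's estimate over the 3 lines with its SE. The points of DDKC_9750 are above 0 for all 9 members, while those of DDKC_9804 lie between 2 and 2.36 for Lif and Il11 and at -1.28 and -1.45 for Il6ra.

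Counted over the 9 tested members, the single-line log2 fold change was above 0 for 9 members in DDKC_9750, for 6 in DDKC_9790 and for 5 in DDKC_9804. The medians were 0.81, 0.16 and 0.29, beside -0.02, -0.01 and -0.02 over all genes tested. In DDKC_9750 both rDKK3 libraries were above both untreated ones for 8 members and below for 0, against 31.4% and 33.4% of all genes. In DDKC_9790 the counts were 5 above and 3 below, against 29.3% and 29.3%, and in DDKC_9804 they were 4 and 4, against 31.6% and 36.7%. Repeat libraries lie close together, so these shares are large for all genes. The members were chosen with earlier results of these data known, and Osmr passed the filter on low counts through DDKC_9750 alone. Nothing is therefore read from the members' counts and medians against those of all genes. Opposite directions in 2 lines, without overlap, were found for 6 of the 9 members (Il6st, Il6ra, Lifr, Il11, Stat3 and Socs3) and for 35.9% of all genes. The single-line value was above 0 in each of the 3 lines for Osmr, Lif and Pim1, against 13.1% of all genes, and below 0 in each line for no member, against 18.2%. Of these 3 members only Pim1 had counting intervals above 1 in every line. Osmr had at most 4 counts per library outside DDKC_9750, and in DDKC_9804 the higher-numbered libraries alone gave -0.15. Whether the response depended on the line was not tested, because each line and condition had 1 sample. In bulk RNA, more cells expressing a gene and more RNA per cell cannot be told apart.

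Across the 6 summed samples the log2 levels of Osmr and Stat3 had a Pearson r of 0.97, those of Il6st and Lifr 0.95, and those of Stat3 and Socs3 0.82. Pim1 had an r of -0.55 with Stat3 and -0.60 with Osmr. The 6 points are 3 lines measured in both conditions, so line differences set most of these values. Outside DDKC_9750 Osmr had 1 to 5 counts per summed sample, so its log2 levels there depend on the prior count. Every r with Osmr therefore mainly sets DDKC_9750 against values near the floor. The genes most like Osmr were Pafah2 (r = 0.9974), Hacd3 (r = 0.9951) and Cpne8 (r = 0.9937), and 122 of 9484 protein-coding genes had an r over 0.95. The genes most like Il6st were Arhgef17 (r = 0.9961), Synpo (r = 0.992) and Vasn (r = 0.9912), of 104 over 0.95. For Stat3 they were B4galt1 (r = 0.9924), Mief2 (r = 0.9918) and Tnip3 (r = 0.9914), of 74 over 0.95. A high r did not require a like difference with rDKK3. In DDKC_9750 the log2 fold change was 0.39 for Pafah2, 0.24 for Hacd3 and 0.70 for Cpne8, beside 3.13 for Osmr. It was 0.35 for Arhgef17, 0.69 for Synpo and 0.92 for Vasn, beside 1.15 for Il6st, and 0.99 for B4galt1, 0.23 for Mief2 and 1.71 for Tnip3, beside 0.88 for Stat3.

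Levels were compared between members as CPM per kilobase of exon, with exon lengths from all annotated transcripts of GENCODE M39. These lengths cover all annotated exons, not only those of the transcripts the cells made, so orders between members depend on them. In untreated DDKC_9750 cells Pim1 was highest (23.6), followed by Stat3 (14.8), Il6st (12.2), Socs3 (12) and Lif (10.8), then Osmr (2.09), Lifr (1.33), Il6ra (0.715) and Il11 (0.40). With rDKK3, Stat3 and Il6st reached 27.1 each, next to 26.3 for Pim1, and Osmr reached 18.4. Per kilobase, treated DDKC_9804 cells had more Lif (27.8) and Il11 (11.8) than Il6st (9.47) or Stat3 (8.59). Before division by length the order was Il6st (147 CPM), Lif (128 CPM), Stat3 (86.7 CPM) and Il11 (24.6 CPM). The first order thus rests on the lengths used. In the same cells Lifr was at 0.739 and Osmr at 0.0131 per kilobase. Pim1 was the highest member per kilobase in 5 of 6 samples. Il6st and Socs3, neighbors in untreated DDKC_9750, differed by less than the spread of either between lines.

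**Figure D3:**
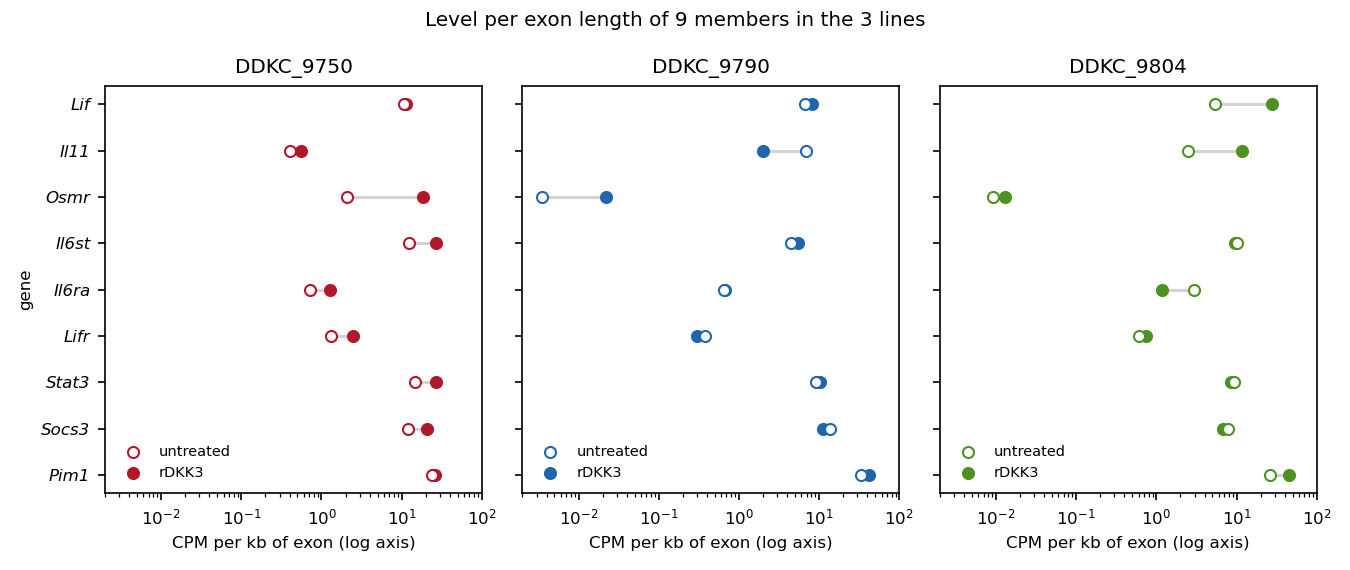
CPM per kilobase of exon (log axis) of each member except Il6 in the 3 lines; open points are untreated and filled points rDKK3-treated summed samples, joined by a grey line. The gp130 subunit Il6st and Stat3 lie between 4.43 and 27.1 in every sample, while Osmr spans from 0.00354 to 18.4.

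The rest of the pathway was examined with 53 further genes. Of these, 3 had no counts in any library, among them Osm, the oncostatin M gene that encodes the ligand for Osmr, and Il31 and Il31ra. In the summed samples 47 were tested and 1 was called, the iron-binding acute-phase gene Lcn2. In the 12 libraries 10 of 44 were called higher and 2 lower, beside 7.95% and 10.1% of all genes. Between lines 23 of 47 differed, beside 31.7%. The 10 and the 23 both include Lcn2, Lrg1 and Saa3, which passed the filter on low counts through the samples where they were high. Nothing is therefore read from these counts against the shares of all genes. The median log2 fold change of the 47 genes was 0.07, beside 0.335 for the 9 members and -0.009 for all genes.

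Of the other ligands, Clcf1, which signals through CNTFR, LIFR and gp130, was higher with rDKK3 in each line, with 45 to 60.2 CPM in DDKC_9750, 104 to 185 CPM in DDKC_9790 and 164 to 368 CPM in DDKC_9804. Its log2 fold change was 0.81 (SE 0.17, adjusted p = 0.563) in the summed samples and 0.82 (adjusted p = 0.00058) in the 12 libraries. Ctf1, cardiotrophin 1, averaged 4.88 ± 3.7 and 3.85 ± 2.94 CPM (SD, n = 3). Of the 4 other receptors, Il11ra1 averaged 8.33 ± 2.42 and 9.18 ± 5.14 CPM (log2 fold change 0.04, adjusted p = 0.974), and Cntfr was at 0 in every sample but treated DDKC_9790, where 0.109 CPM is under the floor.

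None of the 4 Janus kinases was called in either fit. Jak1 was at 179 ± 26.1 CPM untreated and 177 ± 22.2 CPM with rDKK3, Jak2 at 139 ± 28 and 129 ± 43.6 CPM, and Tyk2 at 36.4 ± 8.04 and 38.2 ± 10.6 CPM (SD, n = 3). Of the 6 other STAT genes 5 were tested and none was called. Among the 13 SOCS genes and other brakes, the 12 libraries gave Socs4 (0.20, adjusted p = 0.0449) and Socs7 (0.17, adjusted p = 0.0406) as higher, and Pias3 (-0.28, adjusted p = 0.0299) and the phosphatase gene Ptpn6 (-0.81, adjusted p = 0.0059) as lower. Socs1 (log2 fold change 0.31, adjusted p = 0.847) and Cish (0.23, adjusted p = 0.76), which like Socs3 are induced by STATs, did not pass in the summed samples.

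Of 16 genes known as STAT3 targets, 7 were called higher and 0 lower in the 12 libraries, where 7.95% and 10.1% of all genes were. Of the 7, Lcn2, Lrg1 and Saa3 had at most 2 counts in every sample outside DDKC_9750, apart from Lcn2 in treated DDKC_9804, and so passed the filter on low counts through the samples where they were high, so nothing is read from the count of 7 against these shares. In the summed samples 1 of the 16 was called, Lcn2, and their median log2 fold change was 0.32. The single-line log2 fold change was above 0 for 11 and below 0 for 5 of the 16 in DDKC_9750, for 9 and 5 in DDKC_9790, and for 11 and 3 in DDKC_9804. Over all genes tested 46.3% to 47.2% were above and 51.7% to 52% below 0. The counts above 0 include Lcn2, Lrg1 and Saa3 in DDKC_9750 and Lcn2 in the other lines, so nothing is read from them against these shares either. Lower with rDKK3 were, for example, Myc (-1.03) and Ccnd1 (-0.83) in DDKC_9750 and Fos (-2.62) in DDKC_9804. In DDKC_9790 and DDKC_9804, Myc was at 0.12 and 1.09 and Ccnd1 at 0.22 and 0.69. Fos was at 1.22 in DDKC_9750 and -0.37 in DDKC_9790. Myc, Ccnd1 and Fos were picked after their values were seen and were not called in either fit. In DDKC_9750 Lcn2 went from 60.6 to 4400 CPM, a ratio of 72.6 (69.3 to 76.1), and its log2 fold change over the lines was 6.27 (SE 0.25, adjusted p = 0.00687). DDKC_9790 had 0 counts of Lcn2 untreated and 1 with rDKK3, and without that line the summed fit called 0 genes, Lcn2 included. In DDKC_9804 Lcn2 rested on 2 counts untreated and 95 counts with rDKK3 (ratio 138, 37.1 to 1160). Lrg1 went from 5.53 to 181 CPM in DDKC_9750 and had 0 counts in the other lines. Saa3 went from 1 count to 369 CPM in DDKC_9750 (ratio 11100, 1990 to 437000) and also had 0 counts elsewhere. Cebpd, a transcription factor of the acute-phase response, was at 94.3 and 434 CPM in DDKC_9750, 11.6 and 11.8 CPM in DDKC_9790 and 12.6 and 26.1 CPM in DDKC_9804 (12 libraries: 1.25, adjusted p = 0.0116). Vegfa (0.39, adjusted p = 0.00438), Hif1a (0.71, adjusted p = 0.0012) and Bcl3 (0.29, adjusted p = 0.0355) were the remaining ones called. These genes also answer to other factors, and the part of STAT3 in their levels was not tested.

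**Figure D4:**
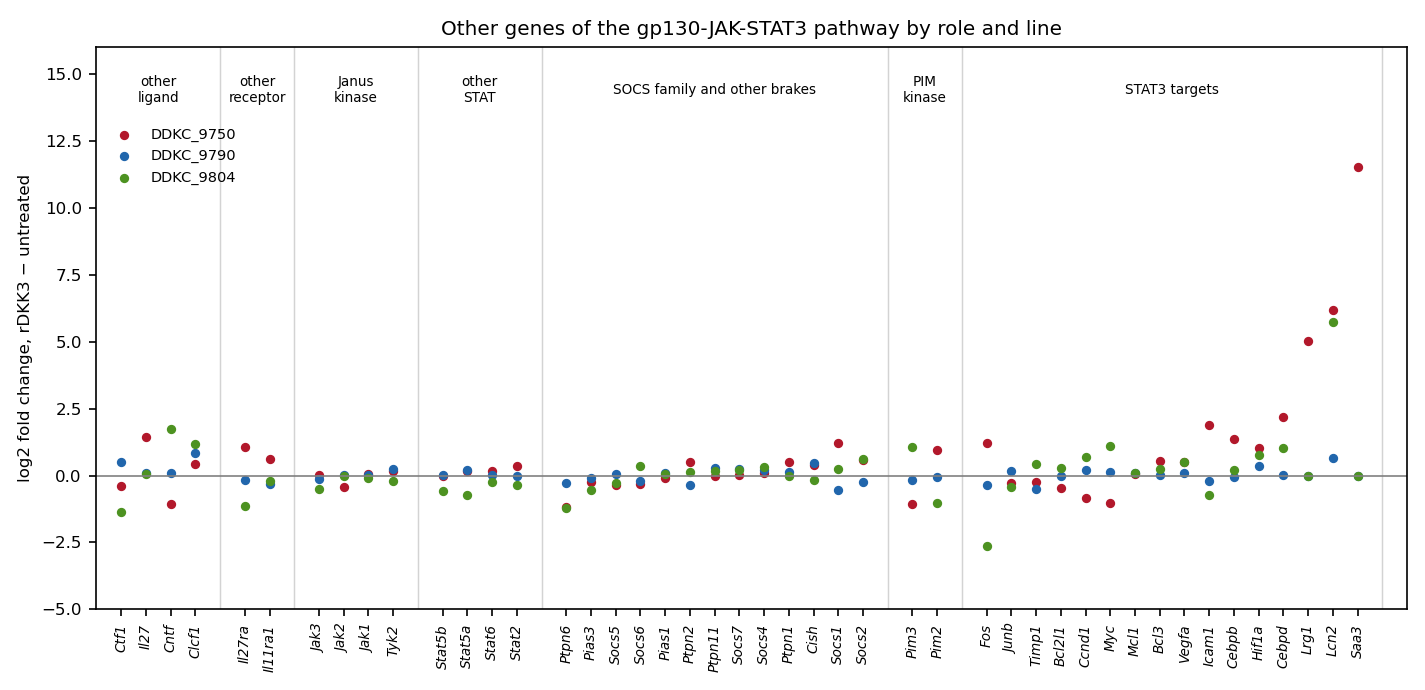
Log2 fold change, rDKK3 minus untreated, in each of the 3 lines for 45 of the 47 tested genes of the wider pathway, grouped by role; a gene with 0 counts in both conditions of a line lies at 0. The points of the Janus kinases lie much nearer to 0 than those of Lrg1, Lcn2 and Saa3 in DDKC_9750.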

How the data were processed

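Total RNA of 3 DDKC lines, untreated or rDKK3-treated, was sequenced as strand-marked 50-base read pairs in 12 libraries. The authors aligned the reads with STAR 2.7.9a to GRCm39 and deposited raw counts per gene of the GENCODE basic annotation M32, counted with the strand and without normalization. The submitters' processing notes also name Picard 2.19.2 and DESeq2 1.38.0. Reads shared by near-identical genes are not resolved by such counting.

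Here, 92 spike-in rows with 0 counts were dropped from the 57278 rows. Gene positions are those of the deposited table. The 2 libraries of a line and condition were summed. Over 12979 genes with a mean count of 20 or more, the deviance per degree of freedom between them was 0.764 with the library series in the model and 6.39 without it. Samples of the same line deviated together (correlations 0.784, 0.835 and 0.762), and the pairing comes from the line named in the labels. edgeR 4.0.16 (R 4.3.3) tested the counts with TMM normalization, its filter on low counts, the line as block and Benjamini-Hochberg adjustment over all genes tested, with a threshold of 0.05 and 2 residual degrees of freedom. Differences between lines were tested on the same fit. In the summed fit, p-values are set against how the difference with rDKK3 varies between these 3 lines, also in the test between lines. In the fit on 12 libraries that variation is pooled with the spread between repeat libraries, which may be technical. Single-line log2 values used a prior count of 2. Ratios are of TMM-scaled counts, with exact 95% counting intervals that cover counting error only. Alternatives covered RLE normalization, no filter, DESeq2 1.42.0, no block, single lines or samples left out, and each library series alone.

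The members, the pathway list and the marker lists were chosen with earlier results of these data known. All members were named. Of the pathway list, genes called in either fit were named, together with Osm, Il11ra1, Cntfr, Clcf1, Ctf1, Jak1, Jak2, Tyk2, Socs1 and Cish. For Osmr, Il6st and Stat3, the 3 protein-coding genes with a mean log2 CPM of at least 3 and the highest r were named. Other genes named with values (Krt8, Vim, Epcam, Ptprc, Cd68 and Csf1r, and Myc, Ccnd1 and Fos) describe the lists. The endothelial markers summed to 1.4 to 15.6 CPM untreated and 0.956 to 17.3 CPM with rDKK3, the acinar ones to 0.647 to 11.9 and 0.572 to 10.8 CPM, the epithelial ones to 5260 to 10000 and 4030 to 8130 CPM, and the mesenchymal ones to 7640 to 20400 and 7420 to 22100 CPM. Some items of the genotype and of the pathway list are not reported here. The concentration of rDKK3 used for the RNA samples is not given in the sources used here.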

Additional observations from a re-analysis of the deposited data

Results flagged for a closer look

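For 6 members both rDKK3 libraries lay above both untreated libraries in one line and below them in another, as did 35.9% of all 17526 genes tested. These differences between lines were not tested, because each line and condition had 1 sample. The log2 fold change of Il11 in DDKC_9804 exceeded that in DDKC_9790 by 3.95. That of Il6ra in DDKC_9750 exceeded that in DDKC_9804 by 2.15. For Il6st the same pair of lines differed by 1.27, and for Stat3 by 0.98. Between DDKC_9750 and DDKC_9790 the difference was 1.21 for Lifr and 1.07 for Socs3.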

How the results depend on the processing

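The count of genes called for rDKK3 on the summed samples was 1. It was 2744 with the 12 libraries as separate samples, 90 without the filter on low counts, 100 with DESeq2, 6 with the lower-numbered and 2 with the higher-numbered libraries alone, and 0 with no replicate block. Leaving out 1 line gave 0 to 25 (25 without DDKC_9750, 0 without DDKC_9790 and 6 without DDKC_9804). Members called in these fits were 2 in the 12 libraries and 1 each without the filter, with DESeq2 and with the lower-numbered libraries, where it was Osmr (adjusted p = 0.00108, 0.000339 and 0.0455), and 0 to 1 with a line left out (Osmr without DDKC_9804, adjusted p = 0.0373). Its log2 fold change lay between 2.7 and 3.13 (adjusted p from 3.44e-05 to 1) in fits that all kept DDKC_9750, the line that expresses it, and no value could be had without that line. Over the same alternatives the log2 fold change turned for 3 members when a line was left out, over a range of -0.68 to 0.46 for Il6ra, -0.97 to 1.53 for Il11 and -0.24 to 0.30 for Socs3. In the 12 libraries, dropping the block from the paired fit gave 0 genes and 0 members, and leaving out a line gave 2169 to 3628 genes and 3 to 4 members.

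Between lines 5557 genes and 4 members were called. The 12 libraries gave 11790 genes and 8 members, no filter 6781 genes and 7 members and DESeq2 6291 genes and 7 members, and leaving out 1 of the 6 samples gave 1495 to 7382 genes and 3 to 7 members. The lowest gene counts came without either sample of DDKC_9790 (1495 and 1614). The Lif difference, DDKC_9804 minus DDKC_9790, ranged from -0.28 to 1.84 with a sample left out. The cause of these shifts was not tested. In the lines with 0 to 4 counts of Osmr per library, depth did not resolve a difference between conditions.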
